A study of Mus musculus with 6 samples.

Results

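The genes described here are 37 named genes of the cell cycle and of DNA replication, 19 of the G1/S transition and the replication machinery and 18 of mitosis. They were taken by name, as a set proposed with earlier results of these data known, from a table of RPKM (reads per kilobase of gene model, scaled to the reads of the library) with 18303 lines. All 37 names were found, and all 37 passed the filter of a mean of at least 1 RPKM that left 11939 genes to be tested. The 6 libraries were poly(A)-selected RNA of mouse embryonic fibroblasts of the strain CBA/CaJ X C57BL/6J on day 2 of reprogramming, all transfected with a short hairpin RNA (shRNA) in the defined medium iCD1. The control shRNA shLuc (named for luciferase) had 2 libraries. One library each came from cells given shEtnk1/2 (ethanolamine kinases), shPcyt2 (the next enzyme of the CDP-ethanolamine pathway), shLuc in medium without ethanolamine (Etn-deprived), and shPebp1 (the phosphatidylethanolamine-binding protein Pebp1). The study asked what inhibition of the CDP-ethanolamine pathway does in reprogramming cells, and whether ethanolamine acts through Pebp1. Not given in the sources used here were the reprogramming factors, the number of hairpins behind each shRNA and the share of cells that took it up.

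Cells enter S phase when cyclin D and cyclin E kinases release the E2F transcription factors from the retinoblastoma protein. E2F then switches on genes for licensing of origins (Cdc6, Cdt1 and the MCM helicase), for the replication fork (Pcna) and for deoxynucleotide supply (Rrm1, Rrm2, Tyms, Tk1). A later wave, under B-Myb, FoxM1 and the DREAM/MuvB complex, makes the kinases, cyclins, motors and kinetochore proteins of mitosis. CHR and CCAAT elements are common in the promoters of that wave. Rapid division helps fibroblasts to be reprogrammed, and both waves are commonly read as a measure of proliferation in such cultures.

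The elements by which the groups are usually told apart were looked for in the 250 bases before the RefSeq transcription start. Of the 37 genes, 29 matched an entry of the RefSeq promoter set (build GRCm38.p6). Mcm4, Gmnn, Ccne2, Ccnd1, Ccna2, Aurkb, Foxm1 and Kif20a did not. The E2F letters TTTCGCGC, TTTGGCGC, TTTCCCGC or TTTGCCGC stood on either strand in 5 of 15 G1/S genes (33.3%), namely Mcm5, Mcm6, Mcm7, Cdc6 and Cdk2. Among the mitotic genes 1 of 14 held them (7.14%), Cdk1, and of all genes in that set 2.16% did. The CHR letters TTTGAA stood in 6 of 14 mitotic genes (42.9%), Ccnb2, Cdk1, Cdc20, Top2a, Mki67 and Kif11, in 1 of 15 G1/S genes (6.67%), Mcm2, and in 18.3% of all genes. The letters CCAAT stood in 13 of 14 mitotic genes (92.9%), in 9 of 15 G1/S genes (60.0%) and in 37.5% of all genes. The 7 windows printed here, 5′ to 3′ on the gene's strand, are examples from genes described below. All 7 hold matches, and windows without any, such as that of Ccne1, are not printed. Capitals mark matches to any of these letters on either strand, and the first E2F pair of Mcm6 overlaps. Mcm7 has more than 1 start in the table, and the window farther upstream is shown. The RefSeq starts of Cdc6 and of that Mcm7 window lie 350 and 539 bases inside the gene as GENCODE vM21 draws it, so these windows are upstream only of the RefSeq start. The same holds for E2f1, counted above as without E2F letters, whose RefSeq start lies 466 bases inside the gene. A match is a description of the letters and was not tested as a binding site.
Mcm6, chr1:128359706-128359955, minus strand: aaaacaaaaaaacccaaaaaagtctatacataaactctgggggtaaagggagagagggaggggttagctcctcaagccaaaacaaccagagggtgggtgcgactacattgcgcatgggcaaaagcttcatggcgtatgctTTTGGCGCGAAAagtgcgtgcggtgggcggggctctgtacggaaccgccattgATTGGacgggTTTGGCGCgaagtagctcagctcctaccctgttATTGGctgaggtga
Mcm7, chr5:138171884-138172133, minus strand: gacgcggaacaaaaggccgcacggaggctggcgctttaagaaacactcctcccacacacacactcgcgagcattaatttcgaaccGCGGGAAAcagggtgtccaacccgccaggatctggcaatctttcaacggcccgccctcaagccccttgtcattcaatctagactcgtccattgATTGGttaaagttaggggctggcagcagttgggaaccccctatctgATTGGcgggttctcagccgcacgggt
Cdc6, chr11:98907901-98908150, plus strand: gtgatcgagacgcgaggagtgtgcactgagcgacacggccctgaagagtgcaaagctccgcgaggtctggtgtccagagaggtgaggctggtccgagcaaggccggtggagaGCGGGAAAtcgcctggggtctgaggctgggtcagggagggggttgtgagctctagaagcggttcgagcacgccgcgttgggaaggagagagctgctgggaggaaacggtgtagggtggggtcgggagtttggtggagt
Cdk1, chr10:69352913-69353162, minus strand: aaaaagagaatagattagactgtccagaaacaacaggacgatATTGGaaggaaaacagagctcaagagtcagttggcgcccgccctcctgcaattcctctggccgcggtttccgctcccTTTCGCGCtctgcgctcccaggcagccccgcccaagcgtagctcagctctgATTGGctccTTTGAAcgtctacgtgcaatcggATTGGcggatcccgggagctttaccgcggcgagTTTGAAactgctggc
Cdc20, chr4:118437344-118437593, minus strand: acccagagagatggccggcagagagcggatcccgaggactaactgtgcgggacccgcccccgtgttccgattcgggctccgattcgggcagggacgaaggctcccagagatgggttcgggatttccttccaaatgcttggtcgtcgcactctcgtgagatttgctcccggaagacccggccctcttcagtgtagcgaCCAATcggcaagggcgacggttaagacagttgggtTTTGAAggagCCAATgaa
Top2a, chr11:99024190-99024439, minus strand: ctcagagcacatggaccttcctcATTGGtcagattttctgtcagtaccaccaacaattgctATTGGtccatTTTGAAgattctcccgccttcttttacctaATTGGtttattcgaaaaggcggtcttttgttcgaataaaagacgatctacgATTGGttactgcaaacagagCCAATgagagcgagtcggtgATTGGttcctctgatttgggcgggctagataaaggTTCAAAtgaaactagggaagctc
Mki67, chr7:135716380-135716629, minus strand: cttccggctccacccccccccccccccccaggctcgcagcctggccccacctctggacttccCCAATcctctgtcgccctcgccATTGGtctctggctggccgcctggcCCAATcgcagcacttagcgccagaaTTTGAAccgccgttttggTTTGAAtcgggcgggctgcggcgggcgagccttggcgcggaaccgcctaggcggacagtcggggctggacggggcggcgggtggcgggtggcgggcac

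Each library held between 18547721 and 20107998 reads in genes, recovered from the RPKM values, and the 37 genes held from 164 to 11393 reads per library. Pebp1 itself went against a label: it stood at 250.4 RPKM in shLuc replicate 1 but at 101 RPKM in the library labelled shLuc replicate 2, next to 99.6 RPKM in shPebp1 and between 210.5 and 263 RPKM in the remaining 3 libraries. Several medians below are therefore also given against each shLuc library alone. Differences of single genes are mostly given against the mean of both, beside their RPKM in each library. If that label were wrong, the spread between the shLuc libraries, and so each standard error, would hold an effect of treatment. This was not tested. The labels do not say that the shLuc libraries came from separate cultures, so p-values measure only the spread between these samples, which may be technical, and each treated library is assumed to vary as that pair did. All 10 fibroblast markers were present, at 9578 to 12956 summed RPKM, highest in shEtnk1/2. Of the markers of other cell types, 2 of 5 macrophage, 1 of 5 endothelial, 1 of 4 muscle, 2 of 5 neural and 1 of 4 keratinocyte markers reached 1 RPKM. The macrophage sum was 45.0 to 60.2 RPKM, again highest in shEtnk1/2, nearly all of it Lyz2, and the endothelial sum was 21.7 to 25.4 RPKM. Their part in the results was not tested. In bulk RNA, fewer dividing cells and less RNA of these genes per cell cannot be told apart.

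Most of the 37 genes stood above the median level of all genes tested, and all moved little. Ccne2, Cdc6 and Cenpe stood below it, at percentiles 13.3, 27.3 and 47.5 of the shLuc level. In the shLuc libraries the median level was 37.9 RPKM for the G1/S genes and 33.7 RPKM for the mitotic genes, against 12.1 RPKM for all genes tested. Highest among the 37 was Pcna, the sliding clamp of the replication fork, at 184 and 175 RPKM in shLuc. Ccnd1, the D-type cyclin that couples growth signals to the cycle, followed at 149 and 133 RPKM, and Top2a, which decatenates chromosomes, led the mitotic genes at 78.1 and 84.7 RPKM. The lowest was Ccne2, an E-type cyclin, at 2.53 and 3.03 RPKM. Between the highest and the lowest of the 6 libraries the ratio ran from 1.06 for Mcm4 to 1.43 for Cdc6, with a median of 1.24. It was at most 1.5 for all 37 genes, and was not counted over all genes tested.

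**Figure D1:**
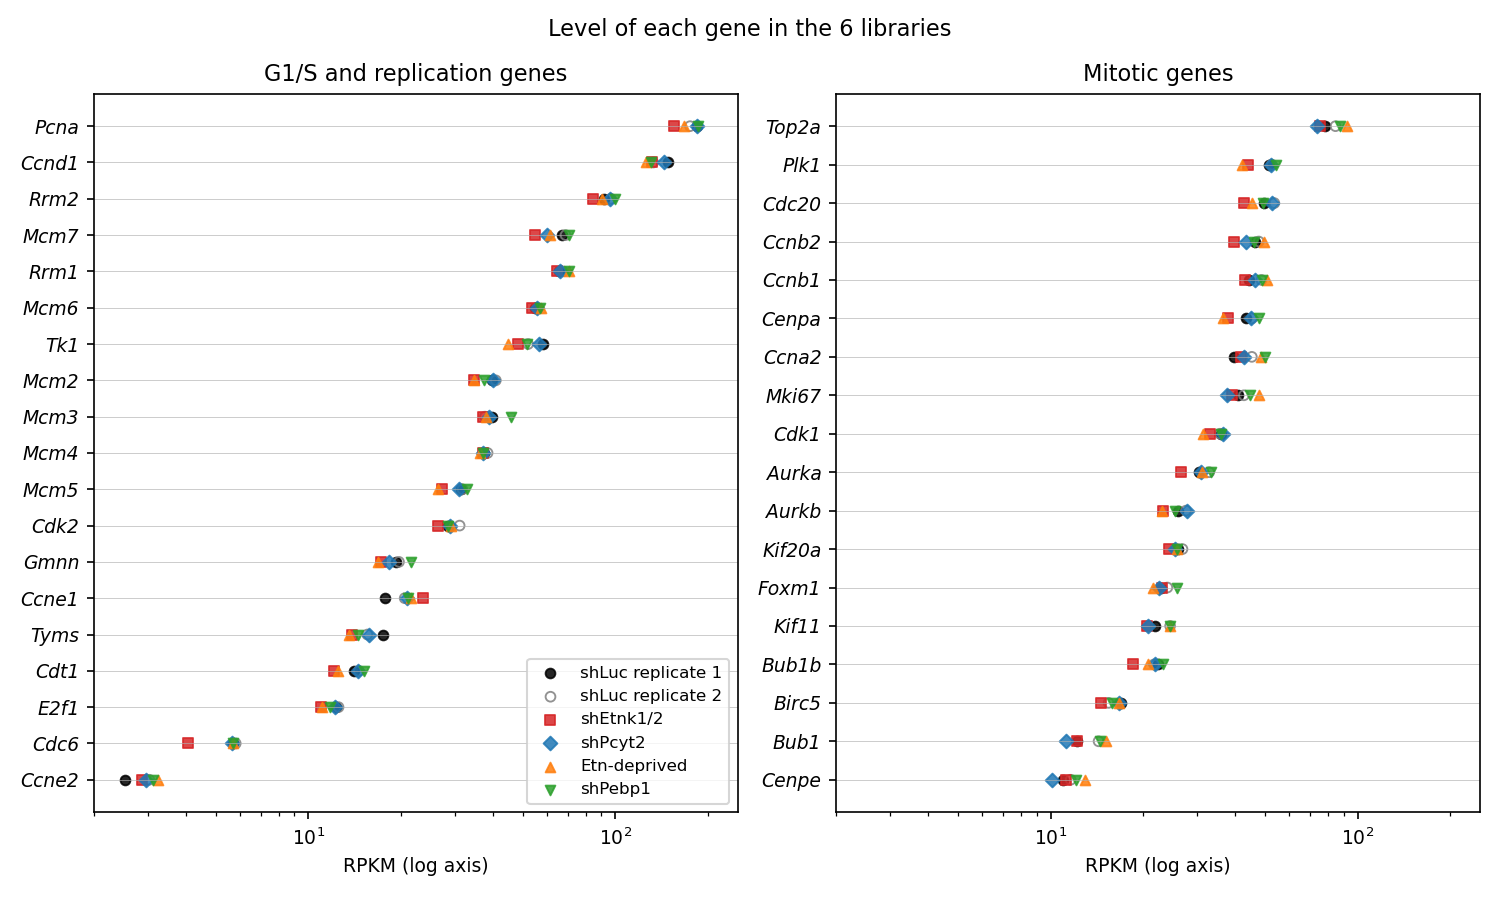
RPKM of the 19 G1/S and replication genes and the 18 mitotic genes (rows, ordered by the shLuc mean) in each of the 6 libraries (symbols), on a log axis. The symbols of a gene lie close together, and the widest ratio is that of Cdc6 (1.43), whose shEtnk1/2 value stands to the left of the others.

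The summed level of the G1/S genes was 935.6 and 919 RPKM in the shLuc libraries, 838 in shEtnk1/2, 928 in shPcyt2, 866 in Etn-deprived cells and 939.9 in shPebp1. For the mitotic genes the sums were 619 and 655 RPKM in shLuc, 571 in shEtnk1/2, 618 in shPcyt2, 635 in Etn-deprived cells and 666 in shPebp1. The shEtnk1/2 library had the lowest sum of both groups. It was the lowest library for 18 of the 37 genes (10 G1/S, 8 mitotic), the Etn-deprived library for 12 and shPcyt2 for 4, all mitotic. The shPebp1 library was the highest for 14 genes and the lowest for 0. These sums and ranks are of unscaled RPKM, and the ranks were not counted over all genes. Of all genes tested, 51.9% lay below both shLuc libraries in shEtnk1/2 and 25.0% above both. In shPebp1 31.7% lay below both and 36.6% above both.

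Differences from the mean of the shLuc libraries are given from here on as log2 of (RPKM + 1), a scale that understates the change of low genes. In shEtnk1/2 the median difference of the 37 genes was -0.16, with -0.17 for the G1/S and -0.13 for the mitotic genes, beside -0.06 for all genes tested. Values lay below both shLuc libraries for 32 of the 37 genes (17 G1/S, 15 mitotic), where 51.9% of all genes tested did so, and above both for 1, Ccne1, where 25.0% of all genes did. Against shLuc replicate 1 alone the median was -0.14 and against the library labelled shLuc replicate 2 alone -0.17. With the libraries scaled to a common median ratio it was -0.09, with 28 of 37 below 0, where 5992 of all 11939 genes tested lay below 0. The order of the groups depended on the reference: the G1/S and mitotic medians were -0.15 and -0.10 against shLuc replicate 1 alone, -0.17 and -0.19 against the library labelled shLuc replicate 2 alone, and -0.10 and -0.06 after scaling. In Etn-deprived cells the median was -0.10 for the G1/S genes and 0.01 for the mitotic genes (-0.03 against the library labelled shLuc replicate 2 alone), beside -0.01 for all genes. The G1/S median was -0.13 against shLuc replicate 1 alone and -0.09 against the library labelled shLuc replicate 2 alone. In Etn-deprived cells 20 genes lay below both shLuc libraries (12 G1/S, 8 mitotic, background 41.9%) and 12 above both (4 G1/S, 8 mitotic, background 36.0%). In shPcyt2 the median was -0.01, beside -0.02 for all genes, and turned to 0.01 with the libraries scaled to a common median ratio. There 14 genes lay below both shLuc libraries (background 39.4%) and 4 above both (background 29.0%). In shPebp1 the median was 0.06 (0.08 against shLuc replicate 1 alone and 0.03 against the library labelled shLuc replicate 2 alone), beside 0.01 for all genes, with 12 genes below both (background 31.7%) and 24 above both (background 36.6%). All 4 comparisons share the shLuc libraries. These differed from each other by a median of 0.07 in size over the 37 genes and by at most 0.21, for Bub1.

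**Figure D2:**
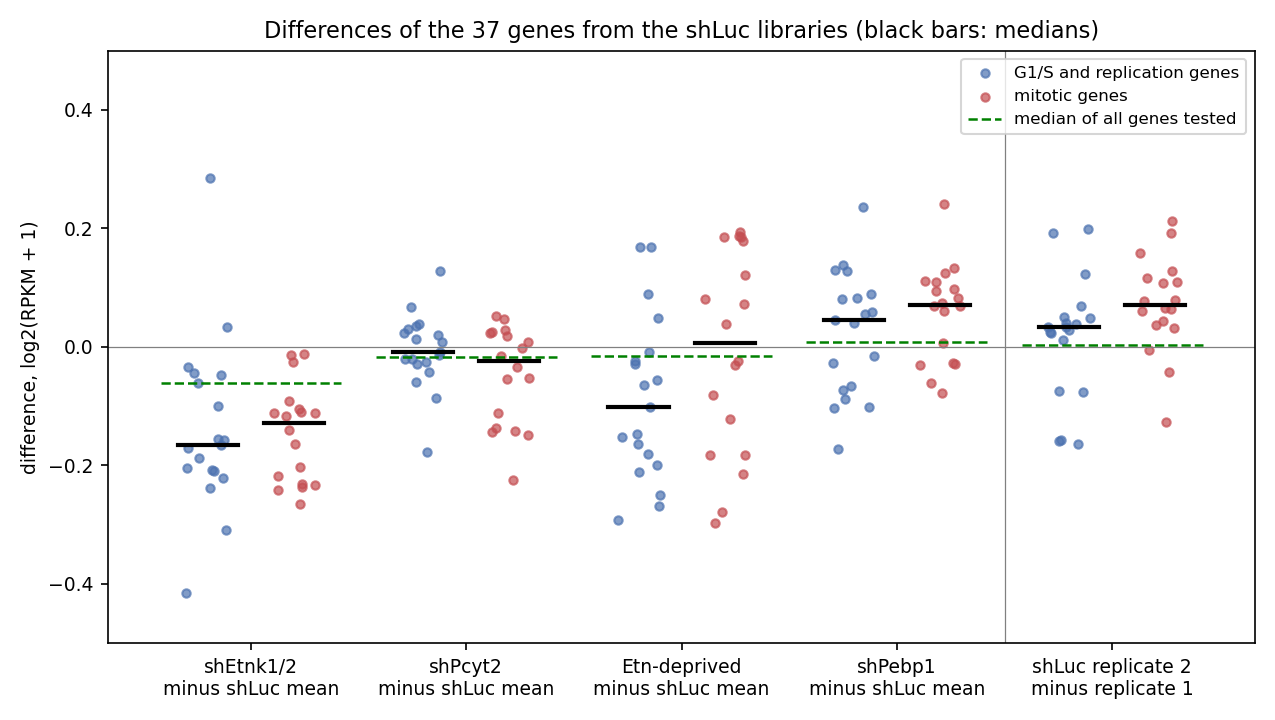
Difference in log2(RPKM + 1) of each of the 37 genes (points) from the mean of the 2 shLuc libraries in the 4 treated libraries, and between the shLuc libraries (right), with medians of each group (black bars) and of all genes tested (dashed green). The shEtnk1/2 points lie mostly below 0, with medians of -0.17 and -0.13, and those of Etn-deprived cells spread to both sides.

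By limma with p-values adjusted over all 11939 genes, 1 of the 37 genes, Mcm7, changed in shEtnk1/2 against shLuc, in the lower direction, where 3.46% of all genes tested were called. No member was called in shPcyt2 (background 0.109%), in Etn-deprived cells (3.8%) or in shPebp1 (0.101%). At an unadjusted p under 0.05 there were 15 lower and 1 higher of the 37 in shEtnk1/2 (background 19.1% of all genes, both directions), 9 lower and 2 higher in Etn-deprived cells (19.9%), 1 in shPcyt2 (5.97%) and 2 in shPebp1 (5.85%). The 16 in shEtnk1/2 became 5 with scaling to a common median ratio, 5 with the length trend removed and 3 with length and GC trends removed. The 11 in Etn-deprived cells became 6 with the length trend removed and 6 with length and GC trends removed. Fits with a shLuc library left out are not counted here, as their spread came from different treatments taken as 1 group. By limma-voom on the recovered reads, 2 members were called in shEtnk1/2 (Mcm7 and Cdc6; background 6.62%) and 1 in Etn-deprived cells (Plk1; 5.85%). It called 0 in shPcyt2 (background 0.31%) and 0 in shPebp1 (0.109%). The standard error of a single gene's difference was 0.07 to 0.17.

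The MCM complex is the replicative helicase, a ring of Mcm2 to Mcm7 loaded at origins in G1. Mcm7 stood at 66.9 and 68.8 RPKM in the shLuc libraries 1 and 2, 54.6 in shEtnk1/2, 59.9 in shPcyt2, 61.2 in Etn-deprived cells and 70.7 in shPebp1. The shEtnk1/2 value lay below every other library, shPcyt2 and Etn-deprived cells came next, and shPebp1 was highest. Counting intervals (95%, Poisson, counting error only) ran from 52.5 to 56.7 RPKM in shEtnk1/2 and did not meet those of shLuc, 64.6 to 69.3 and 66.4 to 71.2 RPKM. Mcm7 fell by 0.31 in shEtnk1/2 (SE 0.07, limma adjusted p = 0.0475), to 80.4% of the shLuc mean. The call was lost with the libraries scaled to a common median ratio (-0.24, limma adjusted p = 0.131). The difference was -0.33 without shLuc replicate 1 and -0.29 without the library labelled shLuc replicate 2. With a shLuc library left out, the other treatments of the pathway were taken as 1 group to give a spread. That spread is a difference between treatments, so the tests of those fits are not given. In shPcyt2 Mcm7 was at -0.18 (SE 0.07, limma adjusted p = 0.836) and in Etn-deprived cells at -0.15 (SE 0.07, limma adjusted p = 0.292). The authors' table places Mcm7 at chr5:138164589-138165161 on the minus strand of mm10, shorter than the gene model of 2396 nt behind its RPKM. GENCODE vM21 gives the gene as chr5:138164583-138172422, with exons that overlap those of Ap4m1 and Cops6 on the opposite strand. The strand setting of the count is not given in the sources used here, so reads of these genes cannot be told apart.

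The remaining MCM subunits differed in the size of their differences from shLuc, none past the test. Mcm2 was at 39.6 (shLuc 1), 40.8 (shLuc 2), 34.6 (shEtnk1/2), 39.97 (shPcyt2), 34.6 (Etn-deprived) and 37.3 RPKM (shPebp1). Mcm5 was at 31.4 (shLuc 1), 31.7 (shLuc 2), 27.3 (shEtnk1/2), 31.00 (shPcyt2), 26.4 (Etn-deprived) and 32.9 RPKM (shPebp1). For both genes shEtnk1/2 and Etn-deprived cells were the lowest libraries and lay below both shLuc libraries. In shEtnk1/2 the difference was -0.21 for Mcm2 (SE 0.08, limma adjusted p = 0.181) and -0.20 for Mcm5 (SE 0.08, limma adjusted p = 0.205). In Etn-deprived cells it was -0.21 for Mcm2 (limma adjusted p = 0.171) and -0.25 for Mcm5 (limma adjusted p = 0.128), so neither passed the test. Mcm4 was at 37.4 (shLuc 1), 38.3 (shLuc 2), 36.96 (shEtnk1/2), 37.1 (shPcyt2), 36.2 (Etn-deprived) and 37.1 RPKM (shPebp1), also lowest in Etn-deprived cells and then shEtnk1/2, but over the narrowest range of all 37 genes. Mcm6 was at 54.7 (shLuc 1), 55.6 (shLuc 2), 53.3 (shEtnk1/2), 55.7 (shPcyt2), 57.1 (Etn-deprived) and 56.7 RPKM (shPebp1), with its highest value in Etn-deprived cells. Mcm3 was at 39.6 (shLuc 1), 37.6 (shLuc 2), 36.9 (shEtnk1/2), 38.8 (shPcyt2), 37.9 (Etn-deprived) and 45.6 RPKM (shPebp1), with shPebp1 above the other 5 libraries by a difference of 0.24 from shLuc (SE 0.08, limma adjusted p = 0.678). In shEtnk1/2 Mcm3, Mcm4 and Mcm6 were at -0.06, -0.03 and -0.05.

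Licensing needs Cdc6 and Cdt1, which load the MCM ring, and Gmnn (geminin), which holds Cdt1 back after S phase begins. Cdc6 was at 5.68 and 5.79 RPKM in the shLuc libraries 1 and 2, 4.05 in shEtnk1/2, 5.64 in shPcyt2, 5.70 in Etn-deprived cells and 5.67 in shPebp1. The 5 other libraries lay between 5.64 and 5.79 RPKM, and shEtnk1/2 alone was lower, at 70.6% of the shLuc mean with 376 reads and an interval of 3.65 to 4.48 RPKM. This was the lowest difference of any member in any library, -0.42 (SE 0.13, limma adjusted p = 0.117), and it passed only by limma-voom (-0.50, limma-voom adjusted p = 0.0337). Cdt1 was at 14.1 and 14.6 RPKM in shLuc against 12.2, 14.5, 12.5 and 15.2 RPKM in shEtnk1/2, shPcyt2, Etn-deprived and shPebp1 cells. Gmnn was at 19.2 and 19.7 RPKM in shLuc against 17.2, 18.3, 16.8 and 21.5 RPKM in shEtnk1/2, shPcyt2, Etn-deprived and shPebp1 cells. Both were lower in shEtnk1/2 and in Etn-deprived cells than in either shLuc library, and highest in shPebp1, with differences in shEtnk1/2 of -0.22 (SE 0.10, limma adjusted p = 0.253) for Cdt1 and -0.17 (SE 0.09, limma adjusted p = 0.346) for Gmnn. Pcna was at 184 and 175 RPKM in shLuc against 155, 184, 167 and 185 RPKM in shEtnk1/2, shPcyt2, Etn-deprived and shPebp1 cells. Its shEtnk1/2 value was the lowest, -0.21 from shLuc (SE 0.07, limma adjusted p = 0.126).

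Cyclins and kinases of the G1/S transition did not move as 1 group. Ccne1, the cyclin that activates Cdk2 at the start of S phase, was at 17.8 and 20.6 RPKM in the shLuc libraries 1 and 2, 23.5 in shEtnk1/2, 21.01 in shPcyt2, 21.6 in Etn-deprived cells and 21.03 in shPebp1. It was the only member that was highest in shEtnk1/2. Its difference in shEtnk1/2 was 0.29 (SE 0.10, limma adjusted p = 0.173), and its shLuc libraries were themselves apart. Ccne2 was at 2.53 (shLuc 1), 3.03 (shLuc 2), 2.86 (shEtnk1/2), 2.95 (shPcyt2), 3.24 (Etn-deprived) and 3.12 RPKM (shPebp1), lowest in shLuc replicate 1. Cdk2 was at 28.5 (shLuc 1), 31.1 (shLuc 2), 26.4 (shEtnk1/2), 28.9 (shPcyt2), 29.1 (Etn-deprived) and 28.4 RPKM (shPebp1), with shEtnk1/2 lowest at -0.17 (SE 0.09, limma adjusted p = 0.347). Ccnd1 was at 149 (shLuc 1), 133 (shLuc 2), 131 (shEtnk1/2), 144 (shPcyt2), 125 (Etn-deprived) and 131 RPKM (shPebp1), where shEtnk1/2, Etn-deprived cells and shPebp1 all lay below both shLuc libraries. E2f1, the activator of the G1/S genes, was at 12.3 (shLuc 1), 12.5 (shLuc 2), 11.02 (shEtnk1/2), 12.2 (shPcyt2), 11.1 (Etn-deprived) and 11.7 RPKM (shPebp1), with shEtnk1/2 and Etn-deprived cells lowest and neither past the test.

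The enzymes of deoxynucleotide supply differed among themselves. Tk1, thymidine kinase of the salvage route, was at 58.1 and 51.9 RPKM in the shLuc libraries 1 and 2, 48.1 in shEtnk1/2, 56.1 in shPcyt2, 44.7 in Etn-deprived cells and 51.6 in shPebp1. Tyms, which makes thymidylate de novo, was at 17.5 and 15.5 RPKM in the shLuc libraries 1 and 2, 13.8 in shEtnk1/2, 15.8 in shPcyt2, 13.5 in Etn-deprived cells and 14.5 in shPebp1. For both thymidylate enzymes the Etn-deprived library was lowest and shEtnk1/2 next, and the shLuc libraries were unequal, replicate 1 being the higher. In Etn-deprived cells Tk1 was at -0.29 (SE 0.09, limma adjusted p = 0.0999) and Tyms at -0.27 (SE 0.10, limma adjusted p = 0.188). Ribonucleotide reductase makes all deoxynucleotides from its large subunit Rrm1 and its S-phase subunit Rrm2. Rrm1 was at 65.3 (shLuc 1), 67.5 (shLuc 2), 64.4 (shEtnk1/2), 65.8 (shPcyt2), 70.7 (Etn-deprived) and 70.7 RPKM (shPebp1), and Rrm2 at 92.00 (shLuc 1), 96.6 (shLuc 2), 84.4 (shEtnk1/2), 95.8 (shPcyt2), 90.6 (Etn-deprived) and 99.8 RPKM (shPebp1). Neither subunit was lowest in Etn-deprived cells, and both were lowest in shEtnk1/2, at -0.04 for Rrm1 (limma adjusted p = 0.797) and -0.16 for Rrm2 (limma adjusted p = 0.252).

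**Figure D3:**
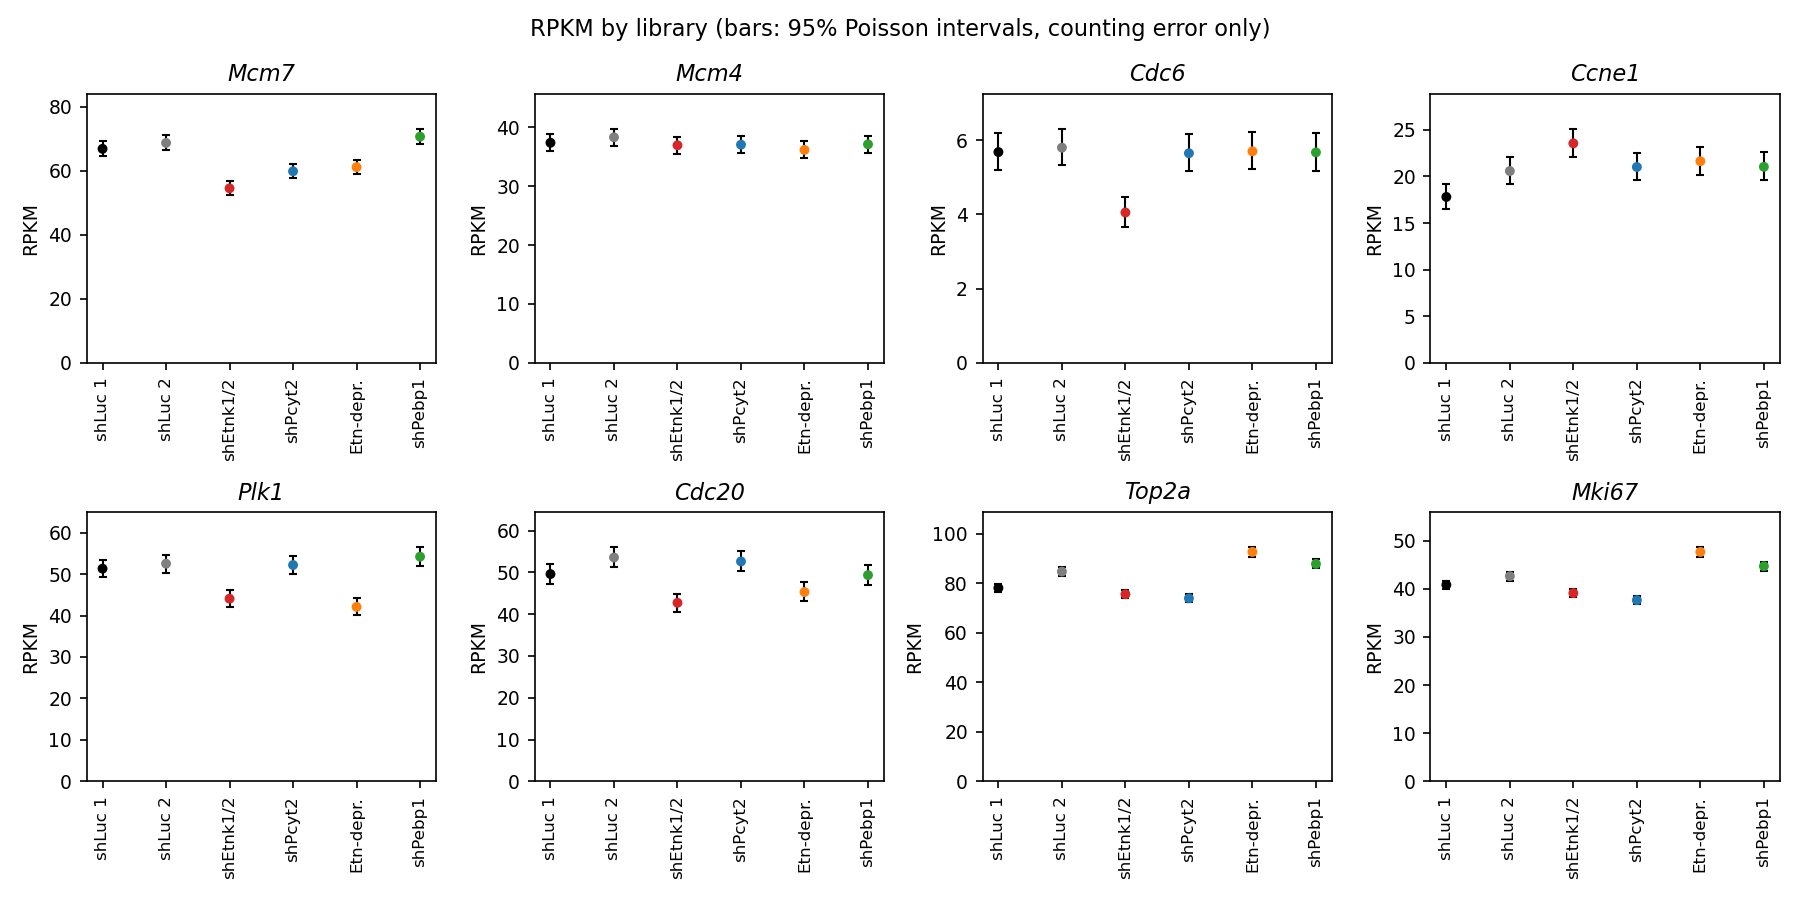
RPKM of 8 of the genes in the 6 libraries (points), each axis from 0, with 95% Poisson intervals that cover counting error only. Mcm7 and Cdc6 are lowest in shEtnk1/2, Mcm4 is level, Ccne1 is highest in shEtnk1/2, Plk1 and Cdc20 are low in shEtnk1/2 and Etn-deprived cells, and Top2a and Mki67 are highest in Etn-deprived cells.

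Among the mitotic genes the kinases and the exit activator lay below both shLuc libraries in shEtnk1/2, at differences from -0.11 (Cdk1 and Bub1) to -0.26 (Cdc20), none past the test. Plk1, the polo-like kinase of mitotic entry and spindle assembly, was at 51.3 and 52.5 RPKM in the shLuc libraries 1 and 2, 44.1 in shEtnk1/2, 52.2 in shPcyt2, 42.1 in Etn-deprived cells and 54.2 in shPebp1. Cdc20, which activates the anaphase-promoting complex, was at 49.6 and 53.6 RPKM in the shLuc libraries 1 and 2, 42.7 in shEtnk1/2, 52.6 in shPcyt2, 45.3 in Etn-deprived cells and 49.3 in shPebp1. The shEtnk1/2 and Etn-deprived libraries lay below both shLuc libraries and below shPcyt2 and shPebp1 for each gene. In shEtnk1/2 Plk1 was at -0.23 (SE 0.07, limma adjusted p = 0.128) and Cdc20 at -0.26 (SE 0.08, limma adjusted p = 0.108). In Etn-deprived cells Plk1 was at -0.30 (SE 0.07, limma adjusted p = 0.0587, limma-voom adjusted p = 0.0291) and Cdc20 at -0.18 (SE 0.08, limma adjusted p = 0.238). Aurkb, the kinase of the chromosomal passenger complex, was at 26.1 (shLuc 1), 27.6 (shLuc 2), 23.2 (shEtnk1/2), 27.9 (shPcyt2), 23.00 (Etn-deprived) and 25.4 RPKM (shPebp1), with the same pair of libraries lowest. Aurka, the kinase of centrosome maturation, was at 30.4 (shLuc 1), 32.9 (shLuc 2), 26.7 (shEtnk1/2), 30.9 (shPcyt2), 31.1 (Etn-deprived) and 33.2 RPKM (shPebp1), where shEtnk1/2 alone was low (-0.24, SE 0.09, limma adjusted p = 0.17). Bub1b, a spindle checkpoint kinase-like protein, was at 22.4 (shLuc 1), 21.7 (shLuc 2), 18.6 (shEtnk1/2), 21.8 (shPcyt2), 20.8 (Etn-deprived) and 23.2 RPKM (shPebp1), lowest in shEtnk1/2 (-0.23, SE 0.09, limma adjusted p = 0.187). Cdk1, the kinase that drives mitosis, was at 35.8 (shLuc 1), 35.6 (shLuc 2), 33.00 (shEtnk1/2), 36.3 (shPcyt2), 31.4 (Etn-deprived) and 35.9 RPKM (shPebp1), lowest in Etn-deprived cells (-0.18, SE 0.08, limma adjusted p = 0.237).

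Mitotic cyclins followed another order. Ccnb2 was at 46.4 and 47.7 RPKM in the shLuc libraries 1 and 2, 39.6 in shEtnk1/2, 43.4 in shPcyt2, 49.5 in Etn-deprived cells and 46.1 in shPebp1. Its shEtnk1/2 value was the lowest (-0.24, SE 0.08, limma adjusted p = 0.119), and its Etn-deprived value the highest. Ccnb1, the main partner of Cdk1, was at 44.4 (shLuc 1), 48.6 (shLuc 2), 42.9 (shEtnk1/2), 46.4 (shPcyt2), 50.7 (Etn-deprived) and 48.98 RPKM (shPebp1), again lowest in shEtnk1/2 and highest in Etn-deprived cells. Ccna2, the cyclin of S phase and G2, was at 39.4 (shLuc 1), 45.2 (shLuc 2), 41.8 (shEtnk1/2), 42.8 (shPcyt2), 48.5 (Etn-deprived) and 50.1 RPKM (shPebp1), with shLuc replicate 1 the lowest library. Against shLuc replicate 1 alone all 5 other libraries were higher for Ccna2, so its direction in shEtnk1/2 depended on which shLuc library was taken. Cenpa, the histone of the centromere, was at 43.2 (shLuc 1), 45.3 (shLuc 2), 37.9 (shEtnk1/2), 45.1 (shPcyt2), 36.3 (Etn-deprived) and 47.9 RPKM (shPebp1), below both shLuc libraries in shEtnk1/2 (-0.22, SE 0.08, limma adjusted p = 0.164) and in Etn-deprived cells (-0.28, SE 0.08, limma adjusted p = 0.0838).

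Top2a, Mki67, Bub1, Cenpe and Kif11, grouped here after their values were seen, are long mitotic genes, and no difference of theirs from shLuc passed the test. Top2a was at 78.1 and 84.7 RPKM in the shLuc libraries 1 and 2, 75.6 in shEtnk1/2, 73.9 in shPcyt2, 92.6 in Etn-deprived cells and 87.8 in shPebp1. Mki67, which coats mitotic chromosomes and is the usual marker of dividing cells, was at 40.8 and 42.6 RPKM in the shLuc libraries 1 and 2, 39.1 in shEtnk1/2, 37.7 in shPcyt2, 47.7 in Etn-deprived cells and 44.7 in shPebp1. Both were highest in Etn-deprived cells and lowest in shPcyt2. In Etn-deprived cells each was at 0.19 (SE 0.08; limma adjusted p = 0.204 for Top2a and 0.213 for Mki67), and in shPcyt2 each was at -0.14 (SE 0.08, limma adjusted p = 0.89). Bub1, the checkpoint kinase at kinetochores, was at 12.2 (shLuc 1), 14.3 (shLuc 2), 12.2 (shEtnk1/2), 11.2 (shPcyt2), 15.2 (Etn-deprived) and 14.5 RPKM (shPebp1). Cenpe, a kinetochore motor, was at 10.96 (shLuc 1), 11.6 (shLuc 2), 11.2 (shEtnk1/2), 10.1 (shPcyt2), 12.9 (Etn-deprived) and 12.1 RPKM (shPebp1). These shared the order, at 0.19 and 0.18 in Etn-deprived cells and -0.22 and -0.14 in shPcyt2, none past the test. Kif11, the motor that separates spindle poles, was at 21.8 (shLuc 1), 24.5 (shLuc 2), 20.6 (shEtnk1/2), 20.8 (shPcyt2), 24.5 (Etn-deprived) and 24.6 RPKM (shPebp1), with the Etn-deprived, shPebp1 and second shLuc libraries nearly equal. Foxm1, the transcription factor of the mitotic wave and of similar length to Bub1, was at 22.9 (shLuc 1), 24.01 (shLuc 2), 23.02 (shEtnk1/2), 22.6 (shPcyt2), 21.5 (Etn-deprived) and 25.8 RPKM (shPebp1), lowest in Etn-deprived cells (-0.12, SE 0.09, limma adjusted p = 0.485). Birc5 (survivin) and Kif20a, a motor of cytokinesis, were between -0.14 and 0.05 in every treated library.

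The differences of the mitotic genes moved with the length of the gene model, which the choice of genes did not use. Rank correlations across genes (Spearman, genes measured in the same libraries, given as descriptions) of length with the difference were 0.71 in shEtnk1/2, -0.69 in shPcyt2, 0.59 in Etn-deprived cells and 0.43 in shPebp1 for the 18 mitotic genes. For the 19 G1/S genes they were 0.00, -0.21, 0.11 and -0.39, and for all genes tested 0.10, -0.24, 0.26 and 0.07. Between the shLuc libraries it was 0.11 for the mitotic genes. In Etn-deprived cells the median was 0.18 for the 6 mitotic genes over 4000 nt (Mki67, Cenpe, Top2a, Kif11, Foxm1 and Bub1) and -0.18 for the 5 of 1000 to 2000 nt (Cenpa, Ccnb2, Cdc20, Aurkb and Aurka). In shPcyt2 the same classes were at -0.14 and 0.03, the opposite order. For all genes tested the medians of these classes were 0.03 and -0.07 in Etn-deprived cells.

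**Figure D4:**
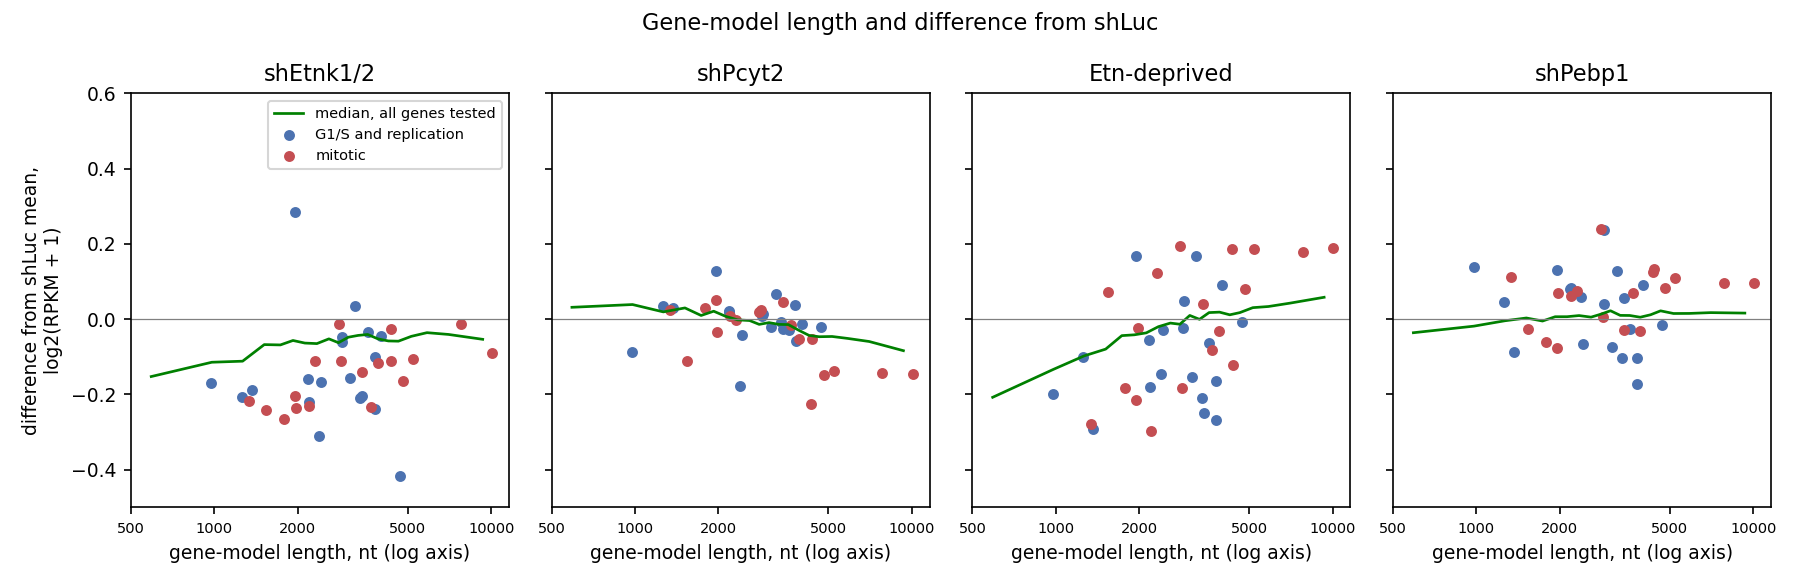
Difference from the shLuc mean in log2(RPKM + 1) against gene-model length in nt (log axis) for the 37 genes (points) and the running median of all genes tested (green), 1 panel for each treated library. Of the 6 mitotic genes over 4000 nt, all lie below 0 in shPcyt2, and all but Foxm1 (-0.12) lie above 0 in Etn-deprived cells.

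GC content of the transcript moved with the differences as well. It was taken from the GENCODE vM21 transcript nearest in length to the gene model, and ran from 35.0% in Ccne2 to 58.8% in Cdt1. In Etn-deprived cells the rank correlation of GC content with the difference was -0.60 for the 37 genes, -0.76 for the mitotic and -0.43 for the G1/S genes, and -0.50 for all genes tested. It was -0.41 for the 37 genes in shEtnk1/2 and -0.38 in shPebp1, with the opposite sign in shPcyt2 (0.24, and 0.51 for the mitotic genes). The shLuc libraries themselves, replicate 2 minus replicate 1, gave -0.31 for the 37 genes and -0.50 for the mitotic genes. In Etn-deprived cells the 15 members of at least 50% GC, among them Plk1, Cdc20, Tk1, Mcm2 and Mcm5, had a median of -0.16. The 22 below 50%, among them Top2a, Mki67, Bub1 and Cenpe, had 0.04 in Etn-deprived cells. All genes tested were at -0.10 and 0.07 in the same classes of that library. In shEtnk1/2 the members' medians were -0.20 and -0.11 beside -0.09 and -0.03 for all genes, so both classes of members were lower than the background. With trends in length and GC content removed from each library, the median of the 37 genes was -0.10 in shEtnk1/2, with 32 of 37 below 0. Of all genes tested with a GC value, 5696 lay below 0 there and 5711 above. In Etn-deprived cells the G1/S genes were then at -0.06 and the mitotic genes at -0.02, where the latter had been at 0.01.

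**Figure D5:**
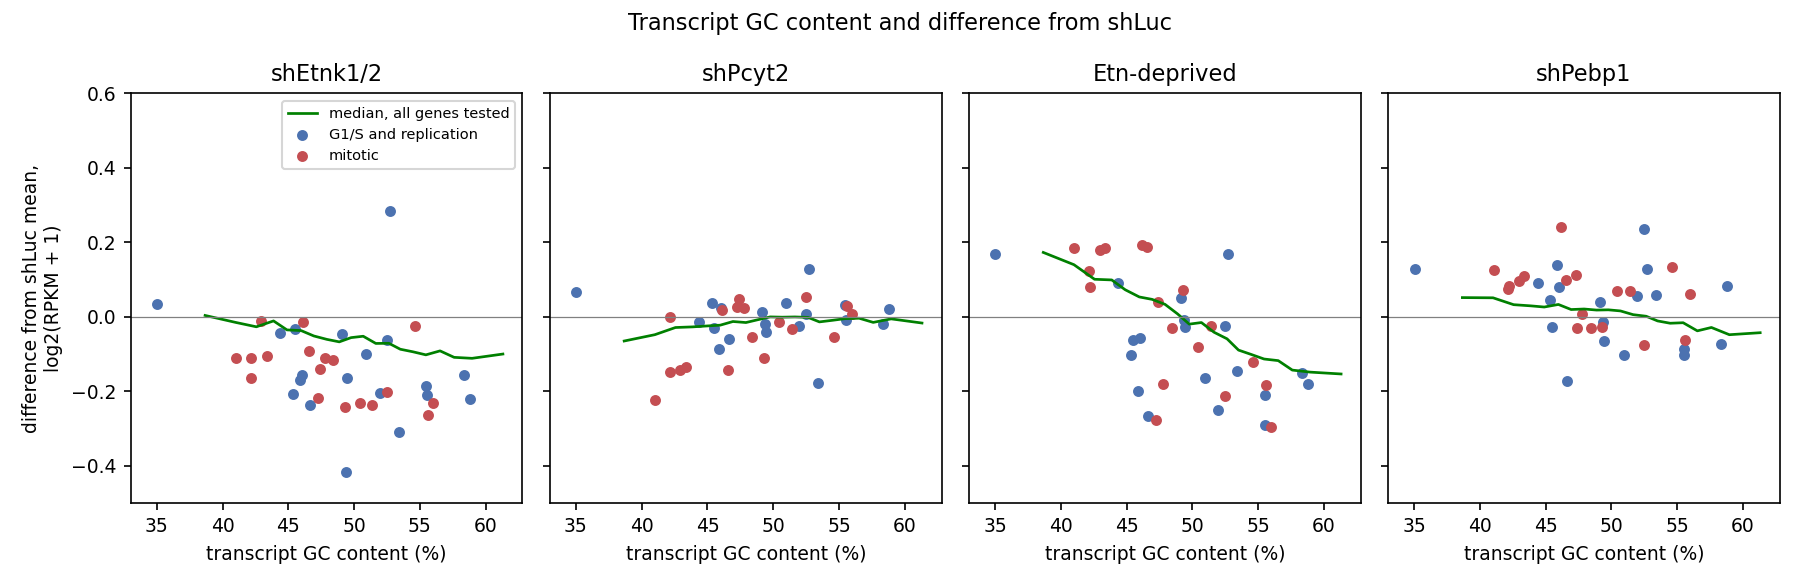
Difference from the shLuc mean in log2(RPKM + 1) against transcript GC content (%) for the 37 genes (points) and the running median of all genes tested (green), 1 panel for each treated library. In Etn-deprived cells the points and the line slope down together, and in shEtnk1/2 most points lie below the line.

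The 3 treatments of the CDP-ethanolamine pathway taken as 1 group of 3 libraries gave no called member against shLuc by limma (background 0.0%) or limma-voom (background 0.0%), and 1 member at an unadjusted p under 0.05 (background 6.06%). Different treatments stood in as replicates, so the spread of this fit also holds differences between treatments. A lack of calls therefore does not show that the treatments share no effect. The median of the 37 genes was -0.08 (-0.04 after scaling to a common median ratio and -0.04 without shEtnk1/2), beside -0.03 for all genes. Without shPcyt2 the count at an unadjusted p under 0.05 was 10, for which the share of all genes was not counted. That fit called 0 members and 8 of 11939 genes. All 3 libraries lay below both shLuc libraries for 6 genes, Mcm4, Mcm5, Mcm7, Gmnn, E2f1 and Kif20a (background 15.9%), and above both for Ccne1 (background 7.82%). Mcm7 was at -0.21 (SE 0.08, limma adjusted p = 0.812).

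Direct tests between treated libraries, with 1 library on each side, asked whether shEtnk1/2 differed from the rest. Against shPebp1, Mcm7 was lower by limma (-0.37, SE 0.08, limma adjusted p = 0.046), the only member called (background 2.72%), and the call was lost with the libraries scaled to a common median ratio (limma adjusted p = 0.123). By limma-voom Mcm7 and Mcm3 were called (background 7.03%), Mcm3 at -0.31 (limma-voom adjusted p = 0.0445). The median of the 37 genes between these libraries was -0.19, with 35 of 37 lower in shEtnk1/2. All genes tested were shifted the same way, with a median of -0.07 and 7786 of 11939 lower. Against shPcyt2 the median was -0.13, with 31 of 37 lower, beside -0.04 and 6972 of 11939 lower for all genes tested. No member was called there by limma (background 0.921%) or limma-voom (2.14%). Against Etn-deprived cells the median was -0.04 for the G1/S genes (0.01 after scaling to a common median ratio) and -0.19 for the mitotic genes, beside -0.04 for all genes tested. No member was called by limma in that comparison (background 0.854%). Limma-voom called 2 there (background 3.05%), Top2a at -0.29 (limma-voom adjusted p = 0.0223) and Mki67 at -0.29 (limma-voom adjusted p = 0.0277), both lower in shEtnk1/2.

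Other genes of replication and mitosis also differed little from shLuc. Of 43 other replication genes (origin recognition, polymerases, clamp loader, GINS and others), 1 was lower and 0 higher in shEtnk1/2 by limma (all genes 3.46%), and 0 were called in the remaining 3 libraries against shLuc (all genes 0.109%, 3.8% and 0.101%). The called gene was Dut, which removes dUTP from the nucleotide pool, at 24.1 and 23.2 RPKM in shLuc, 16.9 in shEtnk1/2, 23.1 in shPcyt2, 20.1 in Etn-deprived cells and 22.6 in shPebp1. Dut fell by 0.46 (SE 0.09, limma adjusted p = 0.0243), and its shEtnk1/2 library was below the other 5. Of 48 other mitotic genes tested, 1 was lower in shEtnk1/2 and 1 in Etn-deprived cells, and 0 were called in shPcyt2 and shPebp1. Lmnb1 (lamin B1 of the nuclear envelope) fell by 0.33 in shEtnk1/2 (SE 0.07, limma adjusted p = 0.0433). Spc24, a subunit of the Ndc80 kinetochore complex, fell by 0.50 in Etn-deprived cells (SE 0.10, limma adjusted p = 0.0187). With length and GC trends removed none of these 3 calls remained (limma adjusted p = 0.088 for Dut, 0.172 for Lmnb1 and 0.213 for Spc24), and with scaling to a common median ratio those of Dut (0.06) and Lmnb1 (0.121) were lost. Without shLuc replicate 1 and without the library labelled shLuc replicate 2, the differences were -0.44 and -0.49 for Dut, -0.38 and -0.28 for Lmnb1 and -0.48 and -0.53 for Spc24. The spread of those fits came from different treatments taken as 1 group, so their tests are not given. Against shPebp1 Lmnb1 and Ube2c, a ubiquitin-conjugating enzyme of mitotic exit, were lower in shEtnk1/2, at -0.40 (SE 0.09, limma adjusted p = 0.0372) and -0.35 (SE 0.08, limma adjusted p = 0.0422). With length and GC trends removed these calls were also lost (limma adjusted p = 0.13 and 0.19). The median of the other mitotic genes was -0.16 in shEtnk1/2 and 0.01 in Etn-deprived cells, and that of the other replication genes was -0.10 and -0.05, beside -0.06 and -0.01 for all genes.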

How the data were processed

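In all, 6 libraries were analysed: 2 of shLuc and 1 each of shEtnk1/2, shPcyt2, Etn-deprived and shPebp1 cells, grouped by their titles. The authors deposited 1 table of RPKM per gene and library, and per the submitters' processing notes Bowtie 0.12.2 and mm10 were used. Alignment settings, gene models, counting program, strand setting and filters are not given in the sources here. RPKM values of all 18303 lines were whole reads within 1e-05 reads plus a relative 5e-09, which gave library totals of 18599217 to 20164255, reads and gene-model lengths. Of 2 repeated names the line of higher mean was kept.

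Values were analysed as log2(RPKM + 1) over the 11939 genes whose mean reached 1 RPKM (median 705.5 reads), by limma 3.58.1 in R 4.3.3 with trended, robust empirical Bayes moderation in a model of 5 group means (1 residual and 9.24 prior degrees of freedom). The pathway comparison had 3 residual degrees of freedom, with different treatments standing in as replicates. Two-sided p-values were Benjamini-Hochberg adjusted across the 11939 genes, and an adjusted p under 0.05 was called. The fit was also run on simulated reads drawn without trends in length or GC content, which is not used here as a check of the calls. Medians, intervals and figures used Python 3.11.15, pandas 2.3.3, scipy 1.17.1 and matplotlib 3.10.9.

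Alternatives were a pseudocount of 0.1, no filter, scaling to a common median ratio, removal of the trend in length, limma-voom on the recovered reads, each shLuc library left out (for the pathway comparison, each of its 5 libraries) and an exact permutation test. Removal of trends in length and GC content (GENCODE vM21 transcripts, 11407 of 11939 genes) was chosen after seeing the data. The 37 genes and the lists were chosen with earlier results of these data known. All 37 are named. Of the lists of other replication genes, other mitotic genes and cell cycle regulators, at most 3 called genes per comparison are named, those of largest difference. Promoter sequences and coordinates are from RefSeq, GRCm38.p6.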

Additional observations from a re-analysis of the deposited data

How the results depend on the processing

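With 1 library per treated group, only the shLuc pair informs the spread in the main fit, and no treatment has a replicate check of its own. In shEtnk1/2 against shLuc the main fit called 1 member and 413 of 11939 genes. The member count became 0 with no filter on low values, where 0 of 18301 genes were called. That loss is not particular to Mcm7. The count also became 0 with scaling to a common median ratio (240 genes called). Removing the trend in length (205 genes) or trends in length and GC content (109 of 11407 genes) gave 0 as well. Limma-voom called 2 members and 790 genes. Leaving out either shLuc library also changed the count, but those fits took the other treatments of the pathway as 1 group. Their spread was then a difference between treatments, so they cannot show whether the call rests on 1 shLuc library. In shEtnk1/2 against shPebp1 the 1 called member became 0 under the same 4 changes to filter, scale and trends, and 2 by limma-voom. Among all genes, the main fit called 325 there, the fit without a filter 0 and scaling 257. Removal of the length trend left 237, removal of length and GC trends 136, and limma-voom called 839. In Etn-deprived cells against shLuc limma-voom called 1 where limma called 0, and in shEtnk1/2 against Etn-deprived cells it called 2 where limma called 0. The other 47 counts under an alternative did not move, and no member that reached an unadjusted p under 0.05 changed direction under any alternative run. For Mcm7 in shEtnk1/2 against shLuc the limma-voom adjusted p was 0.00678 and the limma adjusted p of the main fit 0.0475. It was over the threshold of 0.05 under the 4 changes to filter, scale and trends. An exact permutation test of the pathway comparison has 10 splits and cannot go below p = 0.1, which 3 members reached, Mcm4 and Mcm7 lower and Ccne1 higher. Without any effect, 1 gene in 10 would reach that p. The share of all genes was not counted, so the 3 are not read as a result. No paired analysis was possible because the treated groups hold 1 library each and only the shLuc libraries carry replicate numbers.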

Other observations

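A list of 34 regulators (cyclins, kinases, inhibitors, E2F factors and pocket proteins) was measured beside the 37 genes. In shEtnk1/2 against shLuc 1 was lower and 1 higher by limma, where 3.46% of all genes tested were called. Rb1, the retinoblastoma protein that restrains E2F, was at 22.3 and 24.0 RPKM in shLuc, 16.3 in shEtnk1/2, 19.8 in shPcyt2, 27.2 in Etn-deprived cells and 25.1 in shPebp1. It fell by 0.47 in shEtnk1/2 (SE 0.09, limma adjusted p = 0.0243), and shEtnk1/2 was its lowest library and Etn-deprived cells its highest. The difference between these libraries was -0.70 (SE 0.11, limma adjusted p = 0.0143), and -0.55 with length and GC trends removed (limma adjusted p = 0.122). Against shPebp1 Rb1 was at -0.59 in shEtnk1/2 (SE 0.11, limma adjusted p = 0.0199), and with both trends removed the limma adjusted p was 0.0579. Cdkn1c, a Cdk inhibitor (p57), was at 53.1 and 53.7 RPKM in shLuc, 69.6 in shEtnk1/2, 50.7 in shPcyt2, 53.7 in Etn-deprived cells and 56.3 in shPebp1. It rose by 0.37 in shEtnk1/2 (SE 0.07, limma adjusted p = 0.0249), and the other 5 libraries lay between 50.7 and 56.3 RPKM. Against shPcyt2 it was higher in shEtnk1/2 by 0.45 (SE 0.08, limma adjusted p = 0.0419), a call lost with both trends removed (limma adjusted p = 0.136).

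With trends in length and GC content removed, Cdkn1c was at 0.48 in shEtnk1/2 (limma adjusted p = 0.0344) and Rb1 at -0.47 (limma adjusted p = 0.0629). In Etn-deprived cells 2 regulators were lower and 0 higher, where 3.8% of all genes were called. Cdkn2d, a Cdk4 and Cdk6 inhibitor (p19), fell by 0.48 (SE 0.10, limma adjusted p = 0.0283), from 21.0 and 19.0 RPKM in shLuc to 14.1 RPKM. Cdk4, the partner of Ccnd1, fell by 0.30 (SE 0.06, limma adjusted p = 0.031), from 313 and 327 RPKM to 260.4 RPKM. With both trends removed Cdkn2d was at -0.30 (limma adjusted p = 0.294) and Cdk4 at -0.13 (limma adjusted p = 0.444). Cdkn2b, another inhibitor of Cdk4 and Cdk6 (p15), was at 30.4 and 30.9 RPKM in shLuc, 38.6 in shEtnk1/2, 39.7 in shPcyt2, 31.9 in Etn-deprived cells and 26.6 in shPebp1. It was higher in shEtnk1/2 than in shPebp1 by 0.52 (SE 0.09, limma adjusted p = 0.0194), and shPcyt2 was higher still. Without shLuc replicate 1 and without the library labelled shLuc replicate 2, the differences were -0.52 and -0.43 for Rb1, 0.37 and 0.38 for Cdkn1c, -0.41 and -0.55 for Cdkn2d and -0.33 and -0.27 for Cdk4. The spread of those fits came from different treatments taken as 1 group, so their tests are not given.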
